A study of Homo sapiens with 15 samples.

Results

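The C-type lectin and related receptors described here are 9 genes, *CLEC1B*, *CLEC2D*, *CLEC4E*, *CLEC5A*, *CLEC7A*, *CLEC10A*, *CLEC12A*, *CLEC17A* and *OLR1*. They were chosen by gene symbol from the 60286 genes of the count table, with earlier results of these data known. The 15 libraries come from RNA of THP-1, a leukaemia cell line of monocytic type, and fall into 5 groups of 3. Non-stimulated cells (NC) were given PBS. Cells of EUC and EPL were given 1 μg/mL bacterial extracellular vesicles (BEVs) of *E. coli*, isolated by ultracentrifugation (UC) or by precipitation with ε-poly-L-lysine (PL). Cells of SUC and SPL were given 10 μg/mL BEVs of *S. aureus*, isolated by UC or PL. Species and dose of BEVs changed together and cannot be told apart. The methods give 6 h of incubation and the labels give Day 0. All groups are the same wild-type line, without a step of differentiation to macrophages, and no source names separate cultures, so the p-values measure only the spread between these libraries.

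C-type lectin receptors are membrane proteins that bind glycans, lipids or proteins of microbes, dead cells and other cells through a C-type lectin-like domain. Activating members signal through the kinase SYK, either from a motif in their own tail or through the adaptors FCER1G and TYROBP, and then through CARD9, BCL10 and MALT1 to NF-kappa B. Inhibitory members recruit phosphatases, while others mainly take up their ligands, and a large group of these genes lies in the natural killer gene complex on the short arm of chromosome 12.

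Genes were located in GENCODE release 44 on hg38, the build of the deposited counts. On chromosome 12 lie *CLEC4E* (ENSG00000166523, chr12:8533305-8540905, minus strand), *CLEC2D* (ENSG00000069493, chr12:9664969-9699553, plus strand) and *CLEC12A* (ENSG00000172322, chr12:9951316-9995694, plus strand). *CLEC1B* (ENSG00000165682, chr12:9985642-10013424), *CLEC7A* (ENSG00000172243, chr12:10116777-10130258) and *OLR1* (ENSG00000173391, chr12:10158301-10172138) follow on the minus strand. The other members are *CLEC5A* (ENSG00000258227, chr7:141927357-141947007, minus strand), *CLEC10A* (ENSG00000132514, chr17:7074537-7080307, minus strand) and *CLEC17A* (ENSG00000187912, chr19:14583084-14612035, plus strand). Exons of *CLEC1B* overlap those of *CLEC12A* on the opposite strand, and exons of *CLEC5A* overlap those of *MGAM* on the opposite strand. The sources used here do not give the strand setting of the counting, and reads in these shared stretches cannot be assigned to one strand.

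The start regions of 3 members on chromosome 12 are shown because these genes stood at different levels without BEVs, with *CLEC4E* at no read, *CLEC2D* low and *CLEC12A* the highest of the members. Each is the 250 bases before the RefSeq start on GRCh38.p14, 5′ to 3′ on the strand of the gene. Capitals mark matches of motifs searched on both strands, which are GAGGAA for PU.1, TTGCNNAA for C/EBP and TGANTCA for AP-1.
CLEC4E, chr12:8540906-8541155, minus strand: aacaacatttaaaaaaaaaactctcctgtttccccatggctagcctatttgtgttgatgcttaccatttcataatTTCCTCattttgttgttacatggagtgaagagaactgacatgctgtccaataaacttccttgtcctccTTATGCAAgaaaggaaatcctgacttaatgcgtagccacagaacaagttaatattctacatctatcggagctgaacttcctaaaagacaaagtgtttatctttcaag
CLEC12A, chr12:9971159-9971408, plus strand: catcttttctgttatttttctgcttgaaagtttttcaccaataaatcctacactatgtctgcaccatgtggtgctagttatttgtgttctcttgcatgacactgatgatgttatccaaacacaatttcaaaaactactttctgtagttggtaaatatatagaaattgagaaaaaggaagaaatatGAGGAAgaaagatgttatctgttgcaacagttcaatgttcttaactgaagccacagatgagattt
CLEC2D, chr12:9669463-9669712, plus strand: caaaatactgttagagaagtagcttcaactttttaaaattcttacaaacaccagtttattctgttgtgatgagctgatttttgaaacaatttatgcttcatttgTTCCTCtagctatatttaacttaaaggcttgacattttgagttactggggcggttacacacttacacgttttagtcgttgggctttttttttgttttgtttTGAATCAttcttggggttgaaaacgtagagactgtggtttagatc
The *CLEC4E* region held a PU.1 match at bases -175 to -170 and a C/EBP match at bases -107 to -100, counted from the start. The *CLEC12A* region held a PU.1 match at bases -65 to -60, and the *CLEC2D* region held a PU.1 match at bases -146 to -141 and an AP-1 match at bases -45 to -39. None of the capitals of different motifs overlap in these regions. *CLEC5A* had 2 PU.1 matches and *CLEC1B* a C/EBP match in the same window. No NF-kappa B consensus, ISRE or TATAAA was matched in the windows of these 5 members. Of 35116 promoter windows of this length, 23.6% held the PU.1 motif, 9.05% the C/EBP motif and 6.57% the AP-1 motif, and 9.96%, 3.02% and 10.7% held the NF-kappa B consensus, the ISRE and TATAAA. *CLEC7A*, *CLEC10A*, *CLEC17A* and *OLR1* were not analysed for motifs.

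The libraries held 14399421 to 16637345 counted reads each. Levels are given as CPM, which are counts scaled by the TMM-normalised library size. Changes are log2 fold changes with their standard error (SE) from the quasi-likelihood test of edgeR over all 17198 genes tested, with p-values adjusted by the Benjamini-Hochberg method. A gene was called when its adjusted p was at most 0.01 and its log2 fold change at least 1 in size. To be tested, a gene needed about 0.632 CPM in enough libraries, which 8 of the 9 members passed and *CLEC4E* did not. *CLEC7A*, *CLEC17A* and *OLR1* passed this filter through the BEV libraries alone, and *CLEC1B* through the NC libraries alone. *CLEC5A* and *CLEC10A* reached the level in all 12 BEV libraries but in 1 and 2 NC libraries, and also needed the BEV libraries to pass. The difference of all these members from NC was in part fixed by the filter. The monocyte markers CD33, LYZ, CSF1R, ITGAM, FCGR1A, CD4, SPI1 and CD14 had reads in all 15 libraries, whereas CD68 reached at most 0.192 CPM.

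After 6 h with BEVs, 7 receptor genes lay above NC in every BEV library and 2 lay below it. Among the tested genes, *CLEC7A*, *OLR1*, *CLEC17A*, *CLEC10A* and *CLEC2D* rose and *CLEC12A* fell in all 4 BEV groups, and *CLEC5A* rose in EUC, EPL and SPL. *CLEC4E* had reads with BEVs only and no fold that could be placed among the others, and *CLEC1B* was low and called lower in EUC alone. All 12 BEV libraries lay above all 3 NC libraries for *CLEC2D*, *CLEC4E*, *CLEC5A*, *CLEC7A*, *CLEC10A*, *CLEC17A* and *OLR1*, which is also the case for 17.5% of all genes tested. They lay below all NC libraries for *CLEC1B* and *CLEC12A*, as for 16.1% of all genes tested.

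Of the 8 members tested, 6 were called higher and 2 lower in EUC, where 9.43% of all genes tested were higher and 5.75% lower. In EPL, 6 were higher and 1 was lower, beside 9.38% and 5.15% of all genes tested. In SUC, 5 were higher and 1 was lower, beside 6.82% and 3.06%. In SPL, 6 were higher and 1 was lower, beside 7.76% and 3.7%. The median log2 fold change of the 8 members was 2.49, 2.39, 2.17 and 2.19 in EUC, EPL, SUC and SPL, and that of all genes tested was 0.0008, -0.0008, 0.0067 and -0.0065. *CLEC2D*, *CLEC7A*, *CLEC10A*, *CLEC17A* and *OLR1* were called higher in all 4 groups, as were 6.33% of all genes tested, and *CLEC12A* was called lower in all 4, as were 2.41%. These counts and medians describe members that were chosen with earlier results of these data known and that passed the filter. Some passed it only through their BEV libraries. Their distance from the values of all genes tested was in part fixed by this choice and is no test of the members. The 4 comparisons share the same NC libraries.

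**Figure D1:**
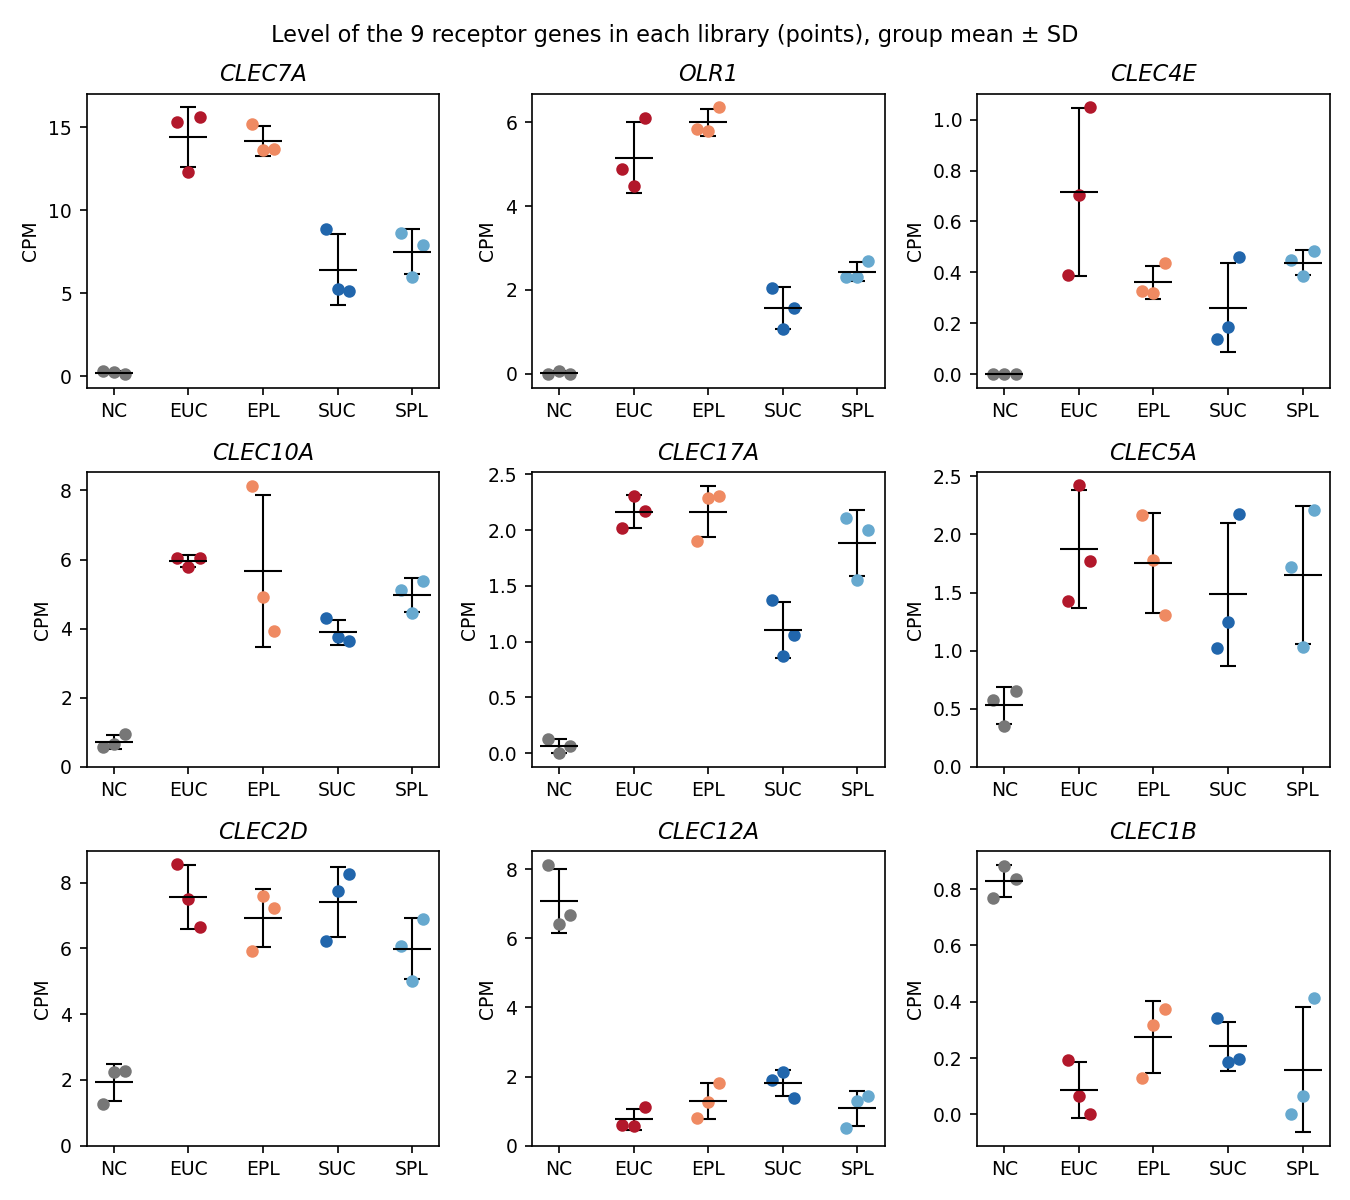
Level of each receptor gene in every library in CPM (y axis, a linear scale of its own for each gene) by group (x axis), where points are libraries and bars the mean ± SD of 3 libraries. *CLEC12A* and *CLEC1B* are highest in NC, and *CLEC7A* and *OLR1* separate the *E. coli* from the *S. aureus* groups.

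*CLEC7A* encodes Dectin-1, the receptor for fungal β-glucan, which signals through SYK from its own tail. It had 0.32, 0.235 and 0.119 CPM in NC, from 5, 4 and 2 reads. It reached 15.3, 12.3 and 15.6 CPM in EUC, 15.2, 13.6 and 13.7 in EPL, 8.88, 5.25 and 5.15 in SUC and 8.62, 5.99 and 7.93 in SPL. The NC libraries were thus close to the detection limit, and the *E. coli* libraries formed the highest set without touching the *S. aureus* libraries. The log2 fold change against NC was 5.96 (SE 0.32, adjusted p = 9.11e-11) in EUC and 5.94 (SE 0.32, adjusted p = 1.05e-10) in EPL. It was 4.80 (SE 0.35, adjusted p = 8.1e-09) in SUC and 5.03 (SE 0.34, adjusted p = 2.91e-09) in SPL.

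*CLEC1B* encodes CLEC-2, the podoplanin receptor best known from platelets, which carries the same kind of tail motif. It had 12, 15 and 14 reads in NC, or 0.768, 0.882 and 0.835 CPM. With BEVs it had 0 to 6 reads, with 3, 1 and 0 in EUC, 2, 5 and 6 in EPL, 5, 3 and 3 in SUC and 0, 1 and 6 in SPL. Every BEV library was below every NC library, but counts of this size leave wide intervals. The log2 fold change was -3.15 (SE 0.78, adjusted p = 0.00368) in EUC, which was called, although no BEV library reached 0.632 CPM. Without EUC replicate 1 it was -4.37. It was -1.56 (adjusted p = 0.0628) in EPL, -1.75 (adjusted p = 0.0526) in SUC and -2.37 (adjusted p = 0.0156) in SPL, none of which was called. The call in EUC did not hold without NC replicate 2, NC replicate 3, EUC replicate 2 or EUC replicate 3, with adjusted p-values up to 0.0188, whereas *CLEC1B* was called lower in SPL without SPL replicate 3 (log2 fold change -4.39, adjusted p = 0.00163). Of 6 platelet and megakaryocyte markers, PF4 and PPBP had no read in any of the 15 libraries. The markers together summed to 4.8 to 5.53 CPM in NC, 3.02 to 7.61 in EUC, 4.4 to 7.06 in EPL, 3.23 to 5.33 in SUC and 4.98 to 5.65 in SPL.

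*CLEC4E* encodes Mincle, a receptor for mycobacterial and other glycolipids that pairs with FCER1G. It had no read in the 3 NC libraries. It had 6, 11 and 16 reads in EUC, 5, 5 and 7 in EPL, 2, 3 and 7 in SUC and 7, 6 and 7 in SPL, which is 0.137 to 1.05 CPM. All 12 BEV libraries held reads, with the widest spread in EUC. Against a floor of 3 counts over the NC group, the level was at least 11.8-fold higher in EUC, 5.96-fold in EPL, 4.32-fold in SUC and 7.21-fold in SPL, with counting error only. Without the filter on low counts, *CLEC4E* was called higher in all 4 groups by edgeR, with adjusted p-values from 1.59e-06 in EUC to 0.0032 in SUC.

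*CLEC5A* encodes MDL-1, an activating receptor for dengue virus that pairs with TYROBP. It had 0.576, 0.353 and 0.656 CPM in NC. It had 1.43, 2.43 and 1.77 CPM in EUC, 2.17, 1.78 and 1.31 in EPL, 1.02, 1.25 and 2.18 in SUC and 1.72, 1.03 and 2.21 in SPL. The 4 BEV groups overlapped one another, and all stood above NC. The log2 fold change was 1.82 (SE 0.40, adjusted p = 0.00149) in EUC, 1.72 (SE 0.41, adjusted p = 0.00259) in EPL and 1.63 (SE 0.41, adjusted p = 0.00487) in SPL. In SUC it was 1.48 (SE 0.41, adjusted p = 0.0111), just short of the threshold, and it was called there by DESeq2 (adjusted p = 0.00468), without the filter on low counts (adjusted p = 0.0028) and without SUC replicate 1 (adjusted p = 0.00737). The calls in EUC, EPL and SPL did not hold without NC replicate 2 (adjusted p = 0.0107, 0.0172 and 0.0281), and 1 or more other left-out libraries also ended each of them. These libraries were EUC replicate 2 for EUC, EPL replicate 1 for EPL, and NC replicate 1, SPL replicate 1 or SPL replicate 3 for SPL. The overlapping gene *MGAM* had 2 to 6 reads in NC, 7 to 31 in EUC, 7 to 22 in EPL, 11 to 28 in SUC and 7 to 22 in SPL, and its part in the counts of *CLEC5A* was not tested.

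*CLEC12A* encodes an inhibitory receptor of myeloid cells for uric acid crystals, which recruits the phosphatases PTPN6 and PTPN11. It was the member with the highest level in NC, at 8.13, 6.41 and 6.68 CPM. It had 0.585, 0.577 and 1.12 CPM in EUC, 0.787, 1.27 and 1.81 in EPL, 1.91, 2.12 and 1.39 in SUC and 0.511, 1.29 and 1.45 in SPL. All BEV libraries stood clearly below NC and the BEV groups overlapped one another in most pairs. The log2 fold change was -3.21 (SE 0.35, adjusted p = 8.67e-07) in EUC and -2.44 (SE 0.32, adjusted p = 8.92e-06) in EPL. It was -1.96 (SE 0.31, adjusted p = 8.69e-05) in SUC and -2.71 (SE 0.33, adjusted p = 4.81e-06) in SPL. The antisense gene CLEC12A-AS1 had at most 1 read in any library. The neighbour CLEC12B, which overlaps *CLEC1B*, had 8 to 10 reads in NC, 2 to 5 in EUC, 0 to 2 in EPL, 1 to 4 in SUC and 1 to 2 in SPL.

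*CLEC10A* encodes the macrophage galactose-type lectin, which binds and takes up glycans with terminal N-acetylgalactosamine. It had 0.576, 0.647 and 0.954 CPM in NC. It had 6.05, 5.77 and 6.05 CPM in EUC, 8.14, 4.91 and 3.93 in EPL, 4.3, 3.75 and 3.63 in SUC and 5.11, 4.44 and 5.38 in SPL. EUC was the tightest group and EPL the widest, where replicate 1 stood apart from the others. The log2 fold change was 3.02 (SE 0.28, adjusted p = 1.34e-07) in EUC, 2.94 (SE 0.28, adjusted p = 2.02e-07) in EPL, 2.41 (SE 0.29, adjusted p = 5.24e-06) in SUC and 2.76 (SE 0.28, adjusted p = 6.56e-07) in SPL. *CLEC10A* is also a marker of conventional dendritic cells. Of 4 other dendritic cell markers, CD1C was the 1 tested, with 0.0986 ± 0.09 CPM in NC and 1.84 ± 0.178, 2.35 ± 0.301, 1.1 ± 0.255 and 1.65 ± 0.566 CPM in EUC, EPL, SUC and SPL (SD, n = 3), and it was called higher in all 4. CD1C passed the filter on low counts through its BEV libraries alone, so its difference from NC was in part fixed by the filter. The 4 markers summed to 0 to 0.412 CPM in NC, 1.95 to 2.24 in EUC, 2.37 to 3.02 in EPL, 0.937 to 1.37 in SUC and 1.28 to 2.45 in SPL. FCER1A, CLEC9A and XCR1 had no read in 9, 8 and 4 of the 15 libraries, and the part of such cells in the result was not tested.

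*CLEC17A* encodes prolectin, a mannose- and fucose-binding lectin known from germinal centre B cells. It had 2, 0 and 1 reads in NC, or 0.128, 0 and 0.0596 CPM. It had 2.02, 2.31 and 2.17 CPM in EUC, 1.9, 2.29 and 2.31 in EPL, 1.37, 0.875 and 1.06 in SUC and 2.11, 1.55 and 2.0 in SPL. SUC was the lowest BEV group and did not overlap SPL. With 3 reads in all of NC, the ratio to NC was 35.6 (95% exact binomial interval 11.9 to 176) in EUC, 35.8 (11.9 to 176) in EPL, 18.0 (5.81 to 90.1) in SUC and 31.0 (10.3 to 153) in SPL, with counting error only. It was called higher in all 4 groups, with adjusted p-values from 1.33e-07 in EUC to 9.26e-06 in SUC. The fitted log2 fold change in EUC was 4.98 (SE 0.46) and 5.85 without NC replicate 1. The B cell marker MS4A1 had no read in 12 of the 15 libraries. The part of such cells in the level of *CLEC17A* was not tested.

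*OLR1* encodes LOX-1, a scavenger receptor for oxidised low-density lipoprotein with a C-type lectin-like domain. It had 0, 1 and 0 reads in NC. It had 4.88, 4.49 and 6.11 CPM in EUC, 5.84, 5.8 and 6.37 in EPL, 2.05, 1.06 and 1.58 in SUC and 2.3, 2.32 and 2.69 in SPL. The *E. coli* groups lay above both *S. aureus* groups, and SPL lay above SUC. With 1 read in all of NC, the ratio was 255 (95% exact binomial interval 45.2 to 10100) in EUC, 297 (52.8 to 11800) in EPL, 76.6 (13.3 to 3070) in SUC and 120 (21.1 to 4780) in SPL. It was called higher in all 4 groups, with adjusted p-values from 3.88e-10 in EPL to 4.36e-07 in SUC. The fitted log2 fold changes of 7.51, 7.73, 5.79 and 6.43 in EUC, EPL, SUC and SPL became 9.32, 9.54, 7.60 and 8.25 without NC replicate 2, which held the single NC read.

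*CLEC2D* encodes LLT1, the ligand of the natural killer cell receptor KLRB1, and is thus the member that other cells bind. It had 1.28, 2.24 and 2.27 CPM in NC. It had 8.58, 7.5 and 6.64 CPM in EUC, 5.91, 7.58 and 7.24 in EPL, 6.22, 7.75 and 8.25 in SUC and 6.07, 5.02 and 6.89 in SPL. The BEV groups overlapped one another at a similar level, with no order by species. The log2 fold change was 1.96 (SE 0.21, adjusted p = 8.67e-07) in EUC, 1.83 (SE 0.21, adjusted p = 2.26e-06) in EPL, 1.93 (SE 0.21, adjusted p = 1.74e-06) in SUC and 1.62 (SE 0.22, adjusted p = 1.33e-05) in SPL.

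**Figure D2:**
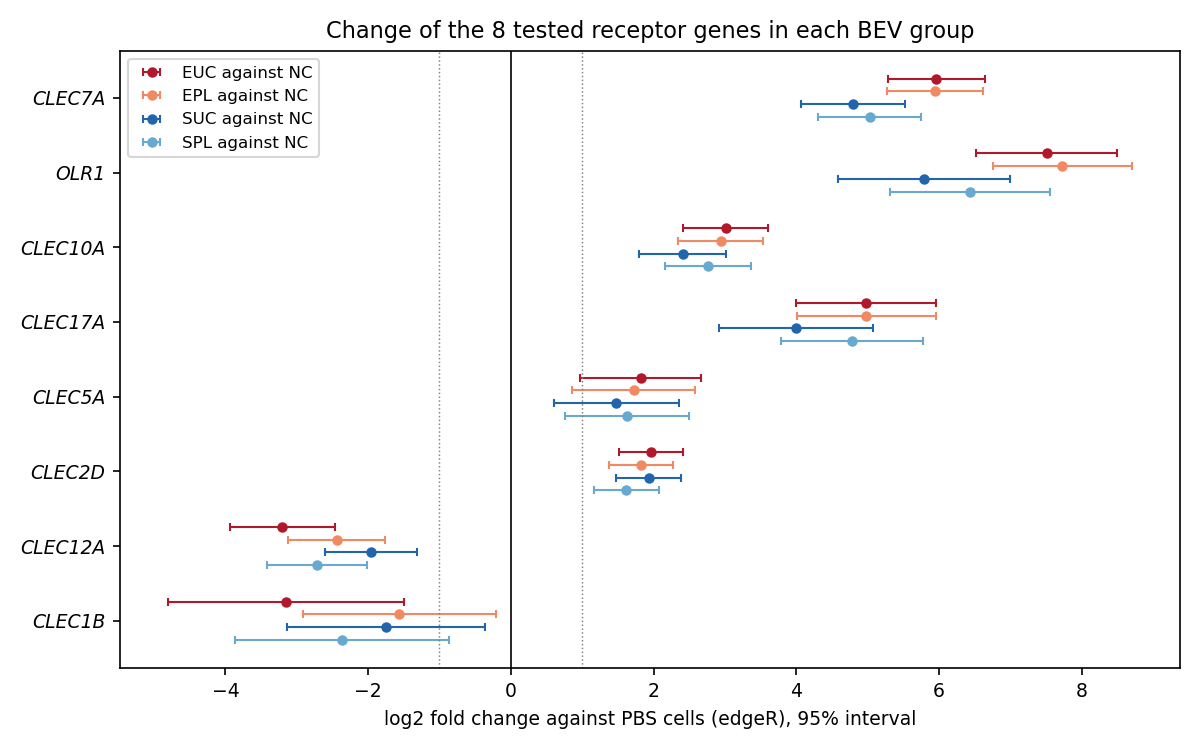
Log2 fold change against NC (x axis, edgeR) of the 8 tested receptor genes (y axis) in each BEV group, where bars are 95% intervals and dotted lines mark the fold threshold. *OLR1* and *CLEC7A* lie farthest to the right, at 5.79 to 7.73 and 4.80 to 5.96, while *CLEC12A* and *CLEC1B* lie to the left of 0.

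The order of the members changed with BEVs. Per kilobase of annotated exons, *CLEC12A* had the highest level in NC, at 2.17 CPM per kb, followed by *CLEC10A* at 0.294, *CLEC2D* at 0.277 and *CLEC1B* at 0.226. In EUC, *CLEC7A* was highest at 3.44 CPM per kb, followed by *CLEC10A* at 2.41, *OLR1* at 1.69 and *CLEC2D* at 1.09, and *CLEC12A* had 0.233. In SUC, *CLEC10A* had 1.58 CPM per kb and *CLEC7A* 1.53, which differed by less than their spread, with *CLEC2D* at 1.06, *CLEC12A* at 0.555 and *OLR1* at 0.512. The top of the list thus passed from an inhibitory receptor without BEVs to *CLEC7A* and *CLEC10A* with them.

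The isolation methods were compared within each species. Of the 8 members, 0 were called between EPL and EUC, as were 0% of all genes tested (edgeR, with 604 genes at an unadjusted p under 0.05, and 0 genes called by DESeq2). With 1 library of EUC or EPL left out, 387 to 2181 genes had an unadjusted p under 0.05 (edgeR). The spread behind the intervals was pooled over all 5 groups, though replicates in EUC and EPL differed more than in NC. The intervals of the difference EPL minus EUC were narrow for *CLEC7A* (log2 difference -0.02, 95% interval -0.41 to 0.36), *CLEC2D* (-0.13, -0.52 to 0.26), *CLEC10A* (-0.08, -0.54 to 0.38) and *OLR1* (0.22, -0.22 to 0.66). They were wider for *CLEC17A* (0.00, -0.56 to 0.57), *CLEC5A* (-0.10, -0.84 to 0.63), *CLEC12A* (0.77, -0.09 to 1.62) and *CLEC1B* (1.59, -0.37 to 3.54). A difference of 2-fold was therefore outside the interval for 6 of these genes and inside it for *CLEC12A* and *CLEC1B*.

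Between SPL and SUC, 0 members were called, beside 0.00581% of all genes tested higher and 0% lower (edgeR, with 1000 genes at an unadjusted p under 0.05). The interval of SPL minus SUC excluded 0 for *CLEC17A* (log2 difference 0.78, 95% interval 0.15 to 1.40, adjusted p = 0.814) and *OLR1* (0.64, 0.10 to 1.18, adjusted p = 0.814). Neither passed the correction over all genes. The 3 SPL libraries lay above the 3 SUC libraries for *CLEC10A*, *CLEC17A* and *OLR1*, as they did for 6.87% of all genes tested. The difference was 0.23 (-0.20 to 0.66) for *CLEC7A*, 0.35 (-0.13 to 0.84) for *CLEC10A*, -0.31 (-0.71 to 0.09) for *CLEC2D*, 0.15 (-0.61 to 0.91) for *CLEC5A*, -0.75 (-1.52 to 0.03) for *CLEC12A* and -0.62 (-2.43 to 1.20) for *CLEC1B*. For the difference between methods set against each other across the species, there were 0 calls among the members and 0% among all genes tested (edgeR, with 659 genes at an unadjusted p under 0.05, and 3 genes called by DESeq2). It was 1.51 for *CLEC12A* (95% interval 0.36 to 2.67, adjusted p = 1.0).

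*CLEC7A* and *OLR1* were the members that differed between the *E. coli* BEVs at 1 μg/mL and the *S. aureus* BEVs at 10 μg/mL. Both were called higher with *E. coli* BEVs, beside 0.663% of all genes tested called higher and 0.0233% lower. *CLEC7A* had 12.3 to 15.6 CPM (median 14.4) in the 6 *E. coli* libraries and 5.15 to 8.88 CPM (median 6.96) in the 6 *S. aureus* libraries. *OLR1* had 4.49 to 6.37 CPM (median 5.82) and 1.06 to 2.69 CPM (median 2.17). The species did not overlap for either gene, which holds for 3.05% of all genes tested in this direction. The log2 difference was 1.04 for *CLEC7A* (SE 0.14, 95% interval 0.75 to 1.33, adjusted p = 9.98e-05) and 1.51 for *OLR1* (SE 0.16, 1.16 to 1.86, adjusted p = 1.64e-05).

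Within the UC groups the log2 difference between species was 1.17 for *CLEC7A* (0.76 to 1.58, adjusted p = 0.00132) and 1.72 for *OLR1* (1.22 to 2.23, adjusted p = 0.000279), and both were called, beside 0.733% of all genes tested. Within the PL groups it was 0.92 for *CLEC7A* (0.51 to 1.32, adjusted p = 0.0257), which was not called, and 1.30 for *OLR1* (0.83 to 1.77, adjusted p = 0.0079), which was called, beside 0.105% of all genes tested. The difference of *CLEC7A* stayed close to the fold threshold and fell to 0.97 without SUC replicate 2, SUC replicate 3 or SPL replicate 2, which ended its call, with adjusted p-values of at most 0.000586.

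The other 6 tested members were not called between the species. *CLEC17A* had a log2 difference of 0.59 (0.17 to 1.01, adjusted p = 0.0993) and *CLEC10A* one of 0.40 (0.06 to 0.73, adjusted p = 0.182). *CLEC2D* differed by 0.12 (-0.16 to 0.40) and *CLEC5A* by 0.21 (-0.31 to 0.74), so that a 2-fold difference lay outside both intervals. *CLEC12A* differed by -0.49 (-1.07 to 0.09, adjusted p = 0.412), with -1.25 in the UC groups (adjusted p = 0.0847) and 0.27 in the PL groups (adjusted p = 0.969). *CLEC1B* differed by -0.29 (-1.63 to 1.04).

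**Figure D3:**
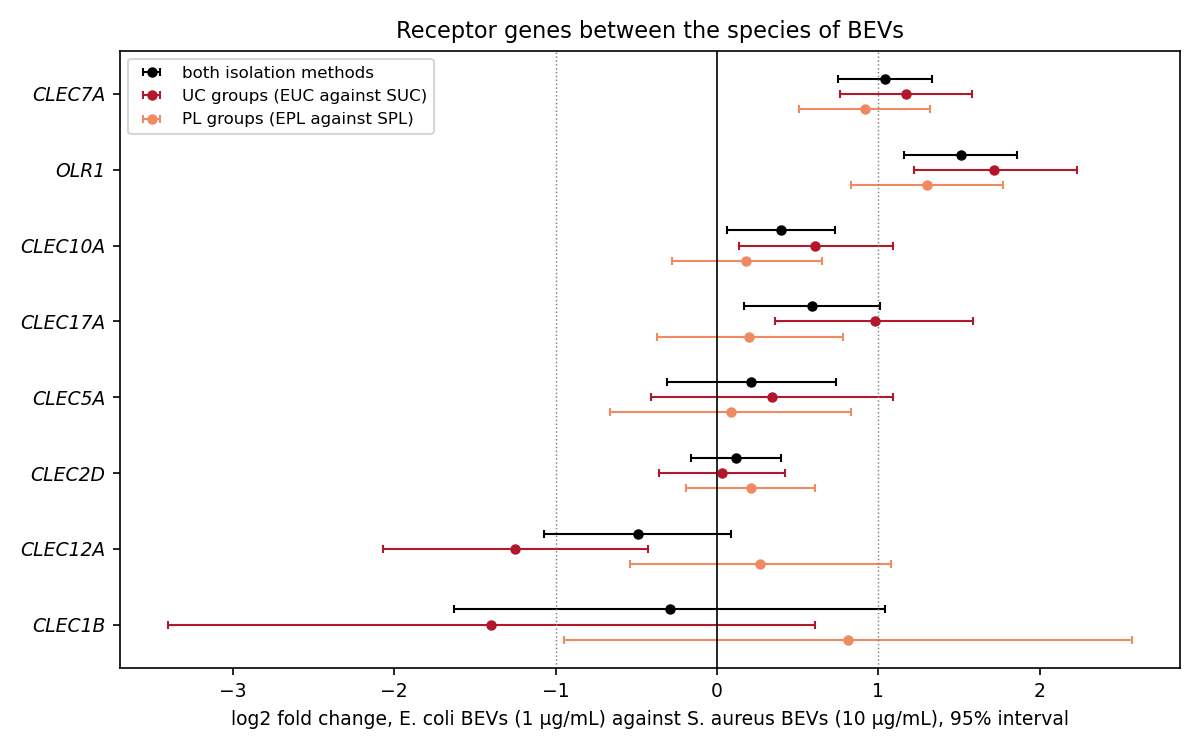
Log2 fold change between *E. coli* and *S. aureus* BEVs (x axis, edgeR, 95% intervals) of the 8 tested receptor genes (y axis), with both isolation methods together and within each. *CLEC7A* and *OLR1* stand to the right of 0 in all 3 comparisons, and the estimates of *CLEC12A* and *CLEC1B* change sign between the UC and PL groups.

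The same libraries show how the members varied together. Over the 15 libraries, log2 CPM of *CLEC7A* and *OLR1* had a Pearson r of 0.984, and over the 12 BEV libraries alone r was 0.942. *CLEC17A* followed both less closely among the BEV libraries, with r of 0.810 for *CLEC7A* and 0.862 for *OLR1*. *CLEC2D* had r of 0.906 with *CLEC7A* over all libraries but 0.101 over the BEV libraries, so that these 2 genes shared the step from NC and not the order of the BEV libraries. The overlapping genes *CLEC1B* and *CLEC12A* had r of 0.841 over all libraries and 0.599 over the BEV libraries. These values describe libraries that share group and normalisation.

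The genes most like *CLEC7A* over the 15 libraries were SAMSN1 (r = 0.996), CXCL12 (r = 0.995) and PLA2G7 (r = 0.995), and those most like *OLR1* were LAMP3 (r = 0.996), GPAT3 (r = 0.994) and ACSL5 (r = 0.993). Among the BEV libraries alone these 6 genes kept r between 0.936 and 0.969. Genes like *CLEC12A* included PRRG4 (r = 0.958) and TOP2B (r = 0.956). *CLEC17A* was most like ARHGAP24 (r = 0.994), *CLEC10A* most like LINC00926 (r = 0.990), *CLEC2D* most like IL18RAP and RNF144B (r = 0.964 for both) and *CLEC5A* most like TNFRSF11A (r = 0.936). Among the BEV libraries alone, r with *CLEC2D* was only 0.418 for IL18RAP and 0.337 for RNF144B. For the others it was 0.829 for PRRG4, 0.797 for TOP2B, 0.961 for ARHGAP24, 0.962 for LINC00926 and 0.716 for TNFRSF11A.

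Of 51 other genes of the C-type lectin superfamily, 50 were in the table and 14 were tested. In EUC, EPL, SUC and SPL, 3, 2, 1 and 2 of these were called higher and 0 lower. Of all genes tested, 9.43%, 9.38%, 6.82% and 7.76% were higher and 5.75%, 5.15%, 3.06% and 3.7% lower in the same order. The median log2 fold change of these 14 genes was 0.25, 0.26, -0.11 and 0.11. THBD, which encodes thrombomodulin, was called higher in all 4 groups and had 277 ± 7.45 CPM in NC, 899 ± 48.0 in EUC, 845 ± 48.9 in EPL, 640 ± 44.6 in SUC, with 760 ± 42.2 in SPL (SD, n = 3). CD209, which encodes the mannose-binding receptor DC-SIGN, had 22.2 ± 2.19 CPM in NC, 72.8 ± 3.37 in EUC, 84.8 ± 15.0 in EPL, 43.0 ± 1.93 in SUC, with 54.2 ± 2.47 in SPL, and was called in EUC, EPL and SPL. In SUC its log2 fold change was 0.95 (adjusted p = 4.62e-06), under the fold threshold. The third, CD69, was called in EUC alone, at 0.691 ± 0.351 CPM against 0.141 ± 0.0328 in NC, and 7 alternatives ended this call. CD69 passed the filter on low counts through BEV libraries alone.

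On chromosome 12, 20 genes were tested between 100 kb before *CLEC4E* and 100 kb after *OLR1*. Of these, 8 were called in at least 1 BEV group, including all 5 tested members there, beside 17.3% of all genes tested. The window was drawn around members chosen with earlier results of these data known. These 5 thus raise the count by choice, and it is no test of the region. The other 3 were CD69, the lncRNA ENSG00000257027 next to *CLEC2D*, and GABARAPL1, a gene of autophagosome formation beyond *OLR1*. GABARAPL1 rose from 2.83 ± 0.395 CPM in NC to between 9.48 ± 1.67 in SUC, with 11.0 ± 0.943 in EPL, and was called in all 4 groups. ENSG00000257027 had 1.54 ± 0.664 CPM in NC and 4.49 ± 0.745 in EUC, and was called in EUC and EPL. Genes that rose and genes that fell stood side by side in this region, with *CLEC12A* and *CLEC1B* between *CLEC2D* and *CLEC7A*.

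The kinases that start signalling below the receptors moved unevenly. Of 13 adaptors and proximal signalling genes, 4, 3, 2 and 2 were called higher in EUC, EPL, SUC and SPL, and 1 was called lower, in EUC. Beside them, 9.43%, 9.38%, 6.82% and 7.76% of all genes tested were called higher, and 5.75% lower in EUC. SRC rose from 32.3 ± 1.48 CPM in NC to 239 ± 32.4 in EUC, 224 ± 10.5 in EPL, 176 ± 19.2 in SUC, with 200 ± 2.05 in SPL. LYN rose from 143 ± 0.713 CPM to 843 ± 23.7, 791 ± 24.9, 597 ± 41.0 and 665 ± 31.5 in the same order. MALT1, the protease of the CARD9 complex, had 9.0 ± 1.18 CPM in NC and 21.3 ± 3.23 in EUC, 21.4 ± 0.0859 in EPL, 17.5 ± 2.03 in SUC, with 16.8 ± 0.572 in SPL, and was called in EUC and EPL.

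The gene called lower was SYK, the kinase shared by the activating receptors, which had 252 ± 3.63 CPM in NC, 126 ± 16.2 in EUC, 139 ± 9.02 in EPL, 146 ± 13.3 in SUC, with 149 ± 5.77 in SPL. Its log2 fold change was -1.0 in EUC (adjusted p = 1.69e-07) and -0.86, -0.79 and -0.76 in EPL, SUC and SPL, under the fold threshold but with adjusted p-values of at most 6.31e-06. The call in EUC sat on the fold threshold and was lost under 4 alternatives, DESeq2 and RLE size factors among them, with log2 fold changes from -1.10 to -0.91 over all of them. CARD9 had a log2 fold change of -0.67, -0.50, -0.49 and -0.53 and PLCG2 one of -0.71, -0.60, -0.56 and -0.47 in the same order, also under the fold threshold. The adaptor genes were not called, with log2 fold changes from -0.01 to 0.13 for TYROBP and -0.04 to 0.09 for FCER1G, whose signs changed under alternatives. SYK, CARD9, PLCG2, TYROBP and FCER1G were singled out after their values were seen.

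**Figure D4:**
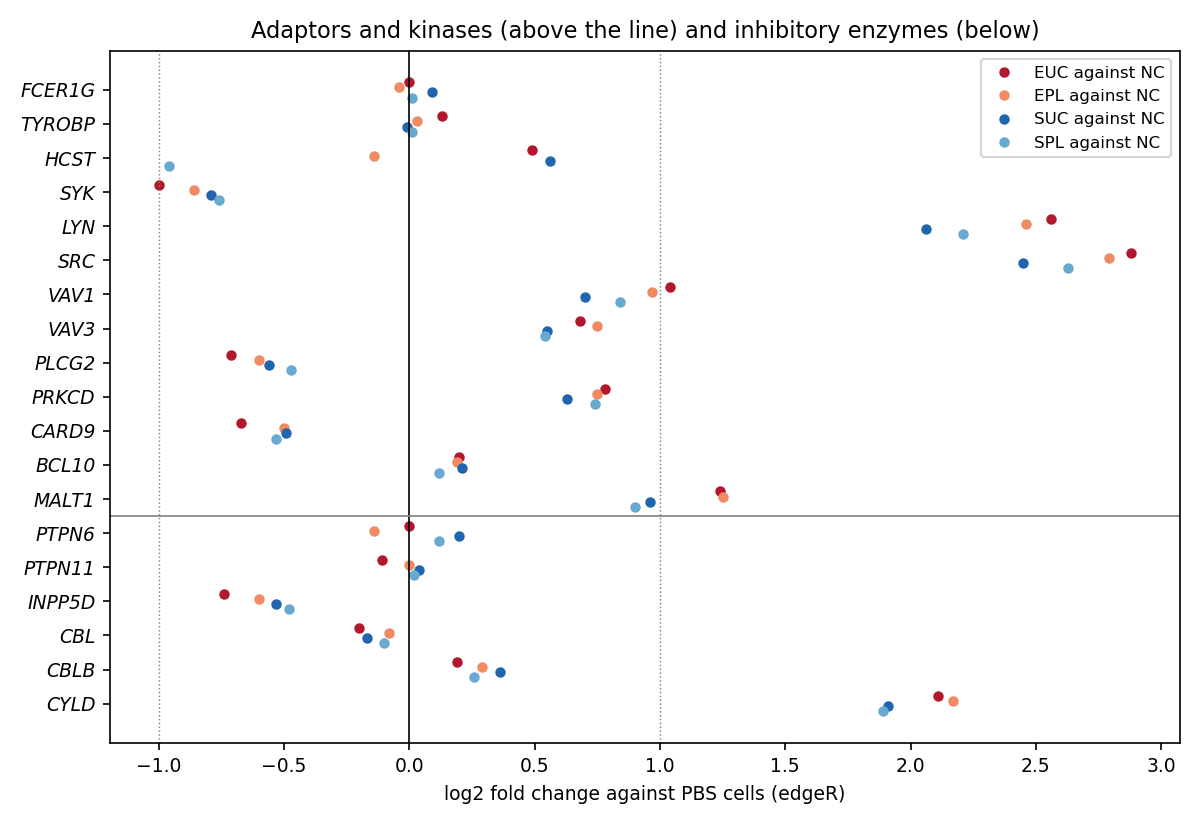
Log2 fold change against NC (x axis, edgeR) of 13 adaptor and proximal signalling genes and 6 inhibitory enzymes (y axis) in each BEV group, with dotted lines at the fold threshold. SRC, LYN and CYLD lie beyond the threshold to the right in all 4 groups, SYK reaches it on the left in EUC, and FCER1G and TYROBP lie near 0.

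Of 6 inhibitory phosphatases and ubiquitin enzymes, 1 was called higher in each BEV group and 0 lower. This was CYLD, a deubiquitinase that limits NF-kappa B, with 27.9 ± 1.58 CPM in NC, 120 ± 2.89 in EUC, 125 ± 6.34 in EPL, 104 ± 4.37 in SUC, with 103 ± 4.69 in SPL. The phosphatase gene INPP5D, picked with its values known, had log2 fold changes of -0.74, -0.6, -0.53 and -0.48 in EUC, EPL, SUC and SPL. These were under the fold threshold, with adjusted p-values of at most 0.00298 (edgeR). Of 19 downstream transcription factors and kinases, 6 were called higher in every BEV group and 0 lower. Beside both lists, 9.43%, 9.38%, 6.82% and 7.76% of all genes tested were called higher in EUC, EPL, SUC and SPL. In the same order, 5.75%, 5.15%, 3.06% and 3.7% were called lower. Both lists were chosen with earlier results of these data known, so their counts are no test of them. NFKB2 rose from 32.2 ± 2.29 CPM in NC to 653 ± 34.5 in EUC and 436 ± 35.1 in SUC, BCL3 from 16.4 ± 0.886 to 228 ± 4.51 and 179 ± 11.2, and EGR2 from 1.53 ± 0.274 to 38.3 ± 2.01 and 27.8 ± 0.227.

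Of 15 cytokine and effector genes, 11 were tested, of which 8, 7, 6 and 7 were called higher and 1, 1, 0 and 1 lower in EUC, EPL, SUC and SPL. Of all genes tested, 9.43%, 9.38%, 6.82% and 7.76% were higher and 5.75%, 5.15%, 3.06% and 3.7% lower in the same order. This list was chosen with earlier results of these data known, and IL6 and IL12B passed the filter through BEV libraries alone. The distance of its counts from those shares was in part fixed by this and is no test of the list. IL1B rose from 2.15 ± 0.587 CPM in NC to 1730 ± 234 in EUC, 1350 ± 67.9 in EPL, 599 ± 88.7 in SUC, with 860 ± 78.6 in SPL. IL23A had 3.05 ± 0.533 CPM in NC, 205 ± 34.0 in EUC and 39.5 ± 10.7 in SUC, and IL12B 0.12 ± 0.0562, 36.3 ± 8.9 and 5.38 ± 1.39. The gene called lower was PYCARD, the inflammasome adaptor, with 63.8 ± 5.56 CPM in NC and 27.6 ± 8.04, 23.6 ± 6.94, 36.2 ± 11.0 and 29.9 ± 3.59 in EUC, EPL, SUC and SPL. These genes are also targets of other microbial sensors, and a part of the receptors in their change was not tested.

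The summed level of the monocyte markers was higher with BEVs, mainly through SPI1. The 9 markers summed to 1280 to 1300 CPM in NC, 1940 to 2150 in EUC, 1800 to 2290 in EPL, 1760 to 1910 in SUC and 1820 to 1960 in SPL. In EUC, EPL, SUC and SPL, 2, 1, 2 and 1 of the 8 tested were called higher, beside 9.43%, 9.38%, 6.82% and 7.76% of all genes tested. SPI1, which encodes PU.1, rose from 471 ± 15.9 CPM in NC to 1200 ± 171, 1100 ± 229, 960 ± 107 and 1000 ± 37.5 in the same order. CD14 had 3.77 ± 0.685 CPM in NC and 8.87 ± 0.422, 7.37 ± 1.22, 7.99 ± 1.91 and 7.01 ± 0.629 with BEVs. The median log2 fold change of the 8 tested markers was -0.13, -0.02, 0.03 and -0.02 in EUC, EPL, SUC and SPL. CD33 had 82.8 CPM in NC and 50.1 in EUC, LYZ 90.4 and 73.9, and FCGR1A 95.1 and 73.4, with log2 fold changes of -0.72, -0.29 and -0.37, under the fold threshold. These 3 markers were picked with their values known, and FCGR1A did not fall in SUC (96.9 CPM, log2 fold change 0.03). CSF1R went the other way, from 208 CPM in NC to 288, 334, 281 and 322 in EUC, EPL, SUC and SPL. Its log2 fold changes of 0.47, 0.68, 0.43 and 0.63 were also under the fold threshold. In EUC, ITGAM and CD4 had log2 fold changes of -0.25 and -0.0. The part of these changes in the levels of the receptors was not tested. In bulk RNA, a change in the number of cells of a type and a change in RNA per cell cannot be told apart. T cell markers summed to at most 0.0624 CPM and natural killer cell markers to 23.6 to 29.9 CPM, with NCAM1 and NKG7 present in all libraries.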

How the data were processed

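The authors extracted RNA from THP-1 cells, checked the reads with FastQC 0.11.5, aligned them to hg38 with HISAT2 2.1.0 at default parameters and deposited raw read counts for each Ensembl gene. The submitters' processing notes also name StringTie 1.3.3b, DESeq 1.28.0 and featureCounts without a role. The sources used here name neither strand setting nor annotation. Libraries were assigned to groups by their labels. The table had 60286 genes, of which 23219 had no count, and 60169 identifiers were in GENCODE release 44, which gave positions and exon lengths. Totals were 14399421 to 16637345 counts per library (median 15831655). Intervals given for ratios hold counting error alone.

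The deposited counts were analysed with edgeR 4.0.16 (filterByExpr, TMM, glmQLFit and glmQLFTest) in R 4.3.3, with 5 group means, all 15 libraries and no replicate block. This left 17198 genes (common BCV 0.118), 2037 of them named by an identifier only. CPM are counts over the TMM-normalized library size, and log2 CPM used a prior count of 2. A call needed 0.01 or less for the Benjamini-Hochberg adjusted p and 1 or more for the size of the log2 fold change. The species comparison set the mean of both *E. coli* groups against that of both *S. aureus* groups. Alternatives were DESeq2 1.42.0, RLE and upper-quartile factors, no filter, no fold threshold, only the groups compared, a replicate block, each library left out and, added after the data were seen, the species within each isolation method. The scripts were tested on simulated data. No replicate pair agreed within sampling noise, and the spread was unequal. The chi-square per degree of freedom between replicates ran from 2.21 to 4.37 in NC and from 7.11 to 46.3 in EUC. It reached 20.2 in EPL, 27.0 in SUC and 4.66 in SPL.

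The members and the gene lists were chosen with earlier results of these data known. All 9 members are named. From each list, up to 3 called genes of at least 1 CPM with the largest mean change over the BEV groups are named, as are the 3 genes most like a member by Pearson r (or fewer where space was short) and every called gene near the members on chromosome 12. Some genes that this rule takes are not reported here. Genes named outside this rule are said to be, or are members of short counts. Promoter windows came from RefSeq (GRCh38.p14), which matched 5 of the 9 members.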

Additional observations from a re-analysis of the deposited data

Results flagged for a closer look

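Both receptor genes that differed between the species of BEVs are set out again for a closer look, because the difference itself passed the test of edgeR. *CLEC7A* was higher with 1 μg/mL *E. coli* BEVs than with 10 μg/mL *S. aureus* BEVs by 1.04 on the log2 scale, and *OLR1* by 1.51. Species and dose changed together, so their parts cannot be told apart. Of the 8 tested monocyte markers, 0 were called between the species. CD33 and LYZ differed by -0.31 and 0.25 (edgeR, adjusted p = 0.00107 and 0.0052), under the fold threshold. Of the 11 tested cytokine and effector genes, 3 were called higher with *E. coli* BEVs and 0 lower, beside 0.663% and 0.0233% of all genes tested. They were IL12B, IL23A and IL1B, with log2 differences of 2.15, 1.67 and 1.09. Under the fold threshold, TNF went the other way, at -0.53 (edgeR, adjusted p = 0.000563). PTGS2 and CCL22 differed by 0.98 and 0.8 (edgeR, adjusted p = 4.57e-05 and 5.78e-05), also under the threshold. The part of such changes in the difference of the receptors was not tested.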

How the results depend on the processing

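The calls of *CLEC2D*, *CLEC7A*, *CLEC10A*, *CLEC12A*, *CLEC17A* and *OLR1* against NC held under all alternatives run, while the size for *OLR1* and *CLEC17A* moved with the NC library left out. The calls of *CLEC5A* and *CLEC1B* rest on few reads. Among the other genes named, calls were lost for SYK, CD69 and VAV1 in EUC and for CD14 and SPI1 in SUC under 1 to 7 of 13 alternatives each, that of SPI1 with upper-quartile factors and without SUC replicate 3, where its log2 fold change was 0.93. The count of members called lower in EUC was 1 to 2 with 1 library left out. In SPL, 2 members were called lower with only the groups compared (*CLEC1B*, log2 fold change -2.37, adjusted p = 0.00245), and 1 to 2 with 1 library left out. Between the species, 1 to 2 members were called higher with 1 library left out, and 1 within the PL groups. Estimates that changed sign were all of comparisons that were not called. Within the PL groups the species difference was 0.81 for *CLEC1B* and 0.27 for *CLEC12A*, and without the filter EPL minus EUC was -0.00 for *CLEC17A*. With 1 library left out, EPL minus EUC ran from -0.13 to 0.04 for *CLEC7A*, -0.04 to 0.09 for *CLEC17A*, -0.28 to 0.13 for *CLEC5A* and -0.43 to 0.13 for *CLEC10A*. SPL minus SUC ran from -0.11 to 0.53 for *CLEC5A*, the species difference from -0.91 to 0.72 for *CLEC1B*, and the species contrast of the method differences from -0.63 to 0.00 for *CLEC5A*. The cause was not tested.

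With a replicate block, no call of a member changed, and *CLEC1B* in EUC had a log2 fold change of -3.14 (adjusted p = 0.0072). Libraries with the same number in different groups had a mean correlation of deviations of 0.00946 over 30 pairs, 7 of them over 0.1, and those with different numbers one of -0.00359 over 60 pairs, 12 of them over 0.1. As a hint from the data and not the design, 9 of 15 libraries correlated best with their own number. The labels name nothing that a number shares, and most pairs were under 0.1, so the samples were not treated as paired. Depth limits *CLEC1B*, *CLEC4E* and *CLEC5A*, and the NC levels of *CLEC7A*, *CLEC17A* and *OLR1*, most.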
